A study of Mus musculus with 4 samples.

Results

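Collagen crosslinking and hydroxylation enzymes were examined in bronchoalveolar stem cells (BASCs) depleted of c-Myc and in control BASCs. The set was fixed as 10 genes by name, namely Lox, Loxl1, Loxl2, Loxl3, Loxl4, Plod1, Plod2, Plod3, P4ha1 and P4ha2, and a probe set was taken where the platform annotation gave exactly 1 of these symbols. This found 9 genes and 16 probe sets, of 18193 genes and 45037 probe sets in all. Loxl2 is not analysed here, because both of its 2 probe sets also carry the symbol of a second gene. BASCs had been sorted from the lungs of ICR mice aged 4-6 weeks as CD31-negative, CD45-negative, CD34-positive, Sca-1-positive cells, and had been plated on irradiated mouse embryonic fibroblasts. For the established cells, the methods of the study name passage onto such fibroblasts, while its results name dishes coated with collagen. There were 2 arrays of c-Myc-depleted BASCs and 2 arrays of control BASCs, which the study calls wild type. The study depleted c-Myc with lentiviral shRNA and derived stable lines by puromycin selection. Its text does not state whether the arrays used those lines. The sources used here do not say whether the control arrays carried a control virus or saw puromycin, so infection and any selection cannot be told apart from depletion. Nor do they say which shRNA was used, or whether each array had its own culture. A p-value here thus weighs the difference between groups against the spread of arrays within a group, and that spread may be technical.

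Collagen is hydroxylated inside the endoplasmic reticulum and crosslinked outside the cell. Prolyl 4-hydroxylases, whose catalytic subunits are P4ha1 and P4ha2, hydroxylate proline and so let the triple helix stay folded at body temperature, while lysyl hydroxylases (Plod1, Plod2, Plod3) modify lysine for sugar attachment and for stable crosslinks. Lysyl oxidases (Lox and its Loxl paralogs) are secreted copper enzymes that oxidize lysine in collagen and elastin, after which crosslinks form. In the lung these enzymes serve the elastic and collagen fibres of the alveolar wall and the airways, and are made largely by fibroblasts. Hydroxylases of both kinds need iron, oxoglutarate, oxygen and ascorbate.

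Expression was read on Affymetrix whole-genome mouse arrays, and each value below is the log2 expression value of a probe set. Myc itself had 8.35 and 8.50 on the Myc-depleted arrays, against 9.21 and 9.69 on the control arrays. The groups did not overlap, and the difference was -1.02 (SE 0.21), or 0.492-fold (unadjusted p = 0.00765, adjusted p = 0.363 in limma). Of the lung epithelial markers listed, 8 of 11 lay under the low-value threshold (log2 5.08, the 40th percentile of the means over the arrays). Among these 8 were Sftpc and Scgb1a1, the surfactant and secretory genes whose proteins mark the labelled cell type. Sftpc had 4.75 and 4.72 in Myc-depleted cells and 4.40 and 4.35 in control cells. Scgb1a1 had 4.41 and 4.68 in Myc-depleted cells and 4.35 and 4.37 in control cells. These values are RNA, while the study detected both proteins by immunostaining in most colonies of its cultured BASCs after several passages. Epcam, an epithelial adhesion gene over the threshold, differed by 0.65 (SE 0.17). Cd34, a gene of the sort, had 3.66 and 3.76 in Myc-depleted cells and 3.85 and 3.97 in control cells, all under the threshold. Of the fibroblast and mesenchymal markers, 9 of 11 lay over the threshold, and 3 were higher (Pdgfra, Dcn and Pdgfrb) and 1 was lower (Thy1) at an unadjusted p under 0.05, or 44.4%, against 12.2% of all genes tested. Pdgfra, a receptor of lung fibroblasts, had 11.70 and 11.36 in Myc-depleted cells and 10.31 and 10.29 in control cells. Thy1, a surface antigen of fibroblasts, had 4.68 and 4.75 in Myc-depleted cells and 6.02 and 5.92 in control cells. Both Myc-depleted values lay under the threshold, so Thy1 was tested only because its control arrays raised its mean. The differences were 1.23 (SE 0.16) for Pdgfra and -1.26 (SE 0.12) for Thy1, with adjusted p of 0.282 and 0.263 in limma. Of 4 smooth muscle markers, 1 was higher (Myh11) and 3 were lower (Acta2, Cnn1 and Tagln) in Myc-depleted cells without overlap, where 47.5% of all genes tested did not overlap. Some of these margins were narrow. Myc-depleted 2 minus control 2 was -0.0015 for Acta2 and -0.035 for Cnn1, and Myh11 differed by 0.09 (SE 0.11). Tagln alone had an unadjusted p under 0.05 in limma, or 25% of the list, against 12.2% of all genes tested. Tagln, a contractile gene, differed by -0.99 (SE 0.29), and the list had summed log2 values of 39.4 and 41.6 in Myc-depleted cells and 42.9 and 42.0 in control cells. The part of these markers in the results was not tested. In such bulk samples, fewer cells of a type and less RNA per cell cannot be told apart. The arrays also differed in the control probe sets that read the 3′ and the 5′ end of RNAs added as labelling controls (poly-A spike-ins). The mean 3′ minus 5′ difference was 3.64 and 1.78 on Myc-depleted 1 and 2, against 1.89 and 3.12 on control 1 and 2. Thus Myc-depleted 1 and control 2 stood apart from the other pair of arrays, across the groups.

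None of the enzymes passed the limma test between Myc-depleted and control cells. All 16 probe sets lay over the low-value threshold and were tested. At an adjusted p under 0.05, 0 of 16 were called, where 0% of the 27022 probe sets tested were called. An unadjusted p under 0.05 was also reached by 0 of 16, against 10.1% of all probe sets tested (5.63% higher and 4.46% lower). A fold above 2 with such a p was reached by 0 of 16, against 1.17% of all. The smallest unadjusted p among them was 0.116 and the smallest adjusted p 0.601. With the highest probe set of each gene, the differences ran between -0.37 for P4ha2 and 0.34 for Plod3, with 6 genes positive, 3 negative and a median of 0.07, beside a median of 0.02 over all 12589 genes tested. Of those 12589 genes, 6803 were positive and 5786 negative. The groups did not overlap for 4 of 16 probe sets (1 higher and 3 lower in Myc-depleted cells), or 25.0%, against 41.1% of all probe sets tested (22.5% higher and 18.5% lower).

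A p over the threshold does not show that the levels were the same, so the width of each interval matters. For 12 of 16 probe sets the 95% interval of the difference lay within 2-fold in either direction, as it did for 78.4% of all probe sets. The 4 exceptions were a second probe set each of Loxl1, Loxl4 and P4ha1, and the single probe set of P4ha2. For 13 of 16, the gap between the 2 arrays of at least 1 group was larger than the difference between the groups. The share of all probe sets with such a gap was not counted, so this is not shown to be particular to the enzymes.

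**Figure D1:**
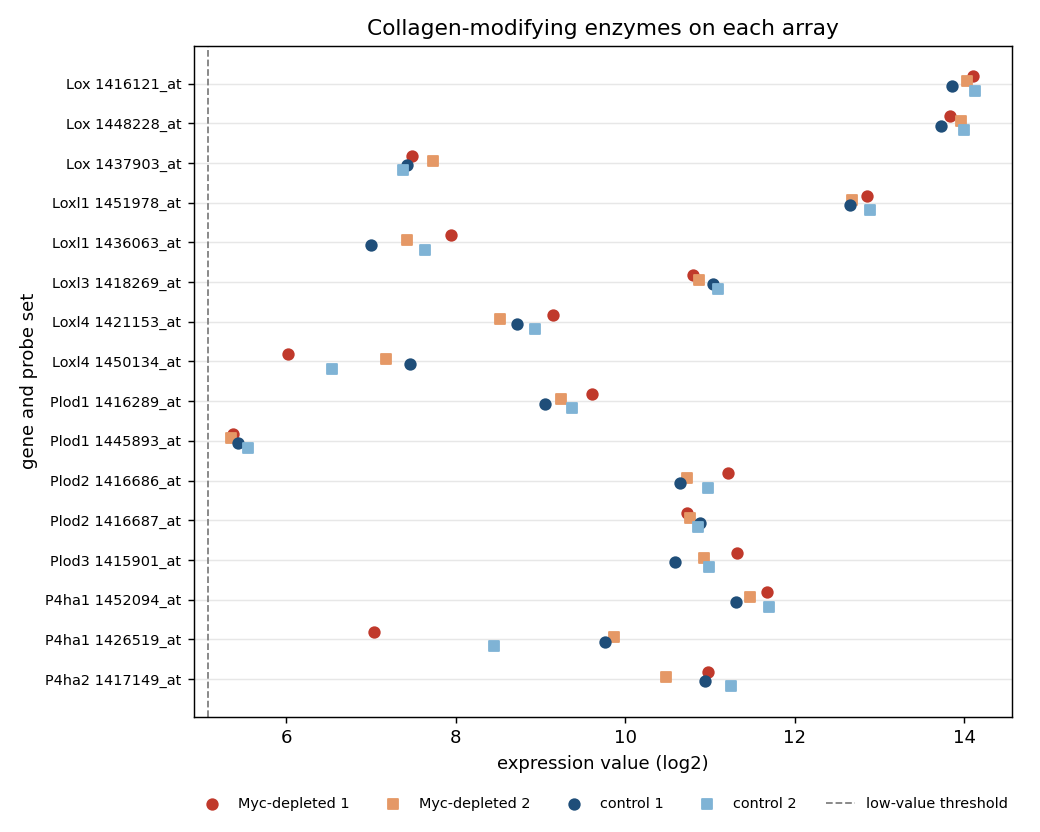
Log2 expression value (x axis) of each of the 16 probe sets of the crosslinking and hydroxylation enzymes (y axis) on the 4 arrays, with the low-value threshold of 5.08 as a dashed line. The 2 groups interleave for most probe sets, Lox lies near 14 by its 2 bright probe sets, and P4ha1 1426519_at is spread from 7.03 on Myc-depleted 1 to 9.86 on Myc-depleted 2.

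Lox, the founding lysyl oxidase, was read brightly and evenly. By probe set 1416121_at it had 14.10 and 14.03 in Myc-depleted cells, against 13.85 and 14.12 in control cells. The groups overlapped, and the difference was 0.08 (SE 0.15, adjusted p = 0.921 in limma), with an interval of 0.797-fold to 1.40-fold. The second bright probe set, 1448228_at, had 13.83 and 13.96 in Myc-depleted cells and 13.73 and 14.00 in control cells, a difference of 0.03. Both bright probe sets lay close to the top of the scale of these arrays, and saturation was not tested. The third probe set, 1437903_at, was far dimmer, with 7.48 and 7.73 in Myc-depleted cells and 7.43 and 7.37 in control cells. It was the only 1 of the 16 with both Myc-depleted arrays over both control arrays, by 0.21 (SE 0.14, adjusted p = 0.708 in limma).

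Loxl1, the paralog needed for elastic fibres in the mouse, had 12.85 and 12.67 in Myc-depleted cells and 12.65 and 12.88 in control cells by probe set 1451978_at. The groups overlapped fully, with a difference of -0.01 (SE 0.15) and an interval of 0.747-fold to 1.33-fold. By its dimmer probe set 1436063_at it had 7.94 and 7.43 in Myc-depleted cells and 6.997 and 7.63 in control cells. That difference of 0.37 (SE 0.31) was smaller than the gap between the arrays of either group. It was 0.049 without control replicate 1, 0.11 without Myc-depleted replicate 1, 0.68 without control replicate 2 and 0.62 without Myc-depleted replicate 2.

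Loxl3, a lysyl oxidase with scavenger receptor domains, had the smallest p of the set. Its single probe set, 1418269_at, had 10.80 and 10.87 in Myc-depleted cells, against 11.03 and 11.09 in control cells. Both Myc-depleted arrays lay under both control arrays, the arrays of each group lay within 0.07 of each other, and the difference was -0.23 (SE 0.11), with an interval of 0.688-fold to 1.06-fold. The adjusted p in limma was 0.601 and the unadjusted p 0.116. In the ANOVA named in the methods of the study, which estimates the spread from each probe set alone, the unadjusted p was 0.0385 and the adjusted p 0.513.

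Loxl4, another member of the scavenger receptor branch, gave different pictures by its 2 probe sets. By 1421153_at it had 9.15 and 8.52 in Myc-depleted cells and 8.72 and 8.93 in control cells, with overlapping groups and a difference of 0.01 (SE 0.26). By 1450134_at it had 6.02 and 7.18 in Myc-depleted cells and 7.45 and 6.54 in control cells, a difference of -0.40 (SE 0.53). The highest array by the first probe set, Myc-depleted 1, was the lowest by the second.

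**Figure D2:**
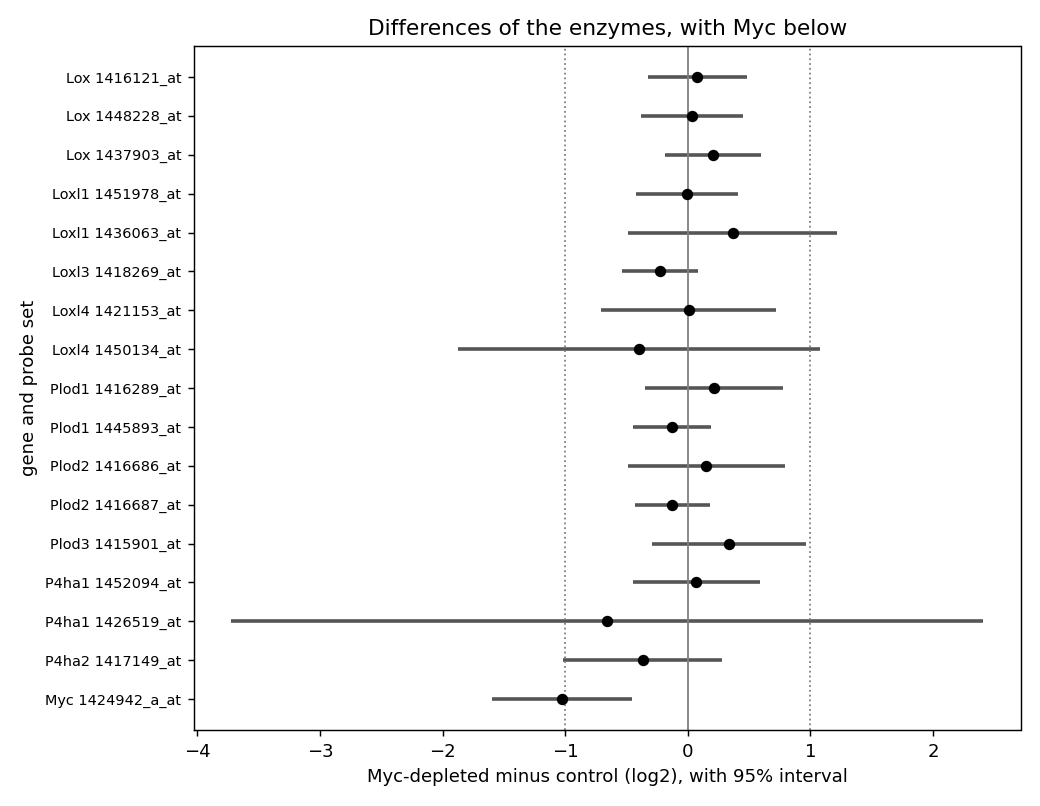
Difference between Myc-depleted and control cells on the log2 scale (x axis, points) with its 95% interval from limma (bars) for each probe set of the enzymes and for Myc, with dotted lines at 2-fold in either direction. Every interval of an enzyme includes 0, that of Myc runs from -1.59 to -0.45, and the interval of P4ha1 1426519_at is the widest.

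The lysyl hydroxylases leaned in no common direction across all their probe sets. By the highest probe set of each gene all were positive, with overlapping groups. The second probe sets of Plod1 and Plod2 were negative. Plod3, which also adds the sugars to hydroxylysine, had the largest positive difference of the 9 genes when each was read by its highest probe set, with 11.32 and 10.92 in Myc-depleted cells, against 10.58 and 10.98 in control cells. The groups overlapped, since control 2 lay over Myc-depleted 2. The difference was 0.34 (SE 0.23, adjusted p = 0.702 in limma), with an interval of 0.818-fold to 1.95-fold. It was 0.13 without control replicate 1 and 0.14 without Myc-depleted replicate 1, and 0.54 without control replicate 2 and 0.53 without Myc-depleted replicate 2.

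Plod1, which hydroxylates lysine within the collagen helix, had 9.61 and 9.24 in Myc-depleted cells and 9.05 and 9.37 in control cells by probe set 1416289_at, a difference of 0.21 (SE 0.20) that ranged from 0.032 without Myc-depleted replicate 1 to 0.39 without Myc-depleted replicate 2. Its dim probe set 1445893_at had 5.37 and 5.35 in Myc-depleted cells and 5.43 and 5.54 in control cells, close to the low-value threshold. There the groups did not overlap, with a difference of -0.13 (SE 0.12).

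Plod2, the hydroxylase of the collagen telopeptides that directs the type of crosslink, was read by 2 probe sets of like brightness. By 1416686_at it had 11.21 and 10.73 in Myc-depleted cells and 10.65 and 10.98 in control cells, with overlapping groups and a difference of 0.15 (SE 0.23). By 1416687_at it had 10.73 and 10.76 in Myc-depleted cells, against 10.89 and 10.85 in control cells. Here the groups did not overlap and the arrays of a group lay 0.029 apart in Myc-depleted cells and 0.033 apart in control cells, with a difference of -0.13 (SE 0.11) and an interval of 0.743-fold to 1.13-fold. Its unadjusted p was 0.316 in limma and 0.0293 in the ANOVA of the methods, where the adjusted p was 0.494. Loxl3 and this probe set of Plod2 were the 2 of 16 with an unadjusted p under 0.05 in that ANOVA, where 9.33% of all probe sets tested had one.

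The catalytic subunits of prolyl 4-hydroxylase are described with their promoters, since P4ha1 and other enzymes of collagen synthesis are known as targets of the hypoxia-inducible factors. The promoter table, from RefSeq on GRCm38.p6, held windows of 300 bases for 5 of the 10 genes, namely Loxl4, Plod1, Plod3, P4ha1 and P4ha2. The E-box CACGTG, the letters to which Myc binds with its partner Max, was in 0 of 5 on either strand, and in 7.15% of all 32851 windows of the table. Other forms of the E-box and bases outside the windows were not searched. The study predicted Myc/Max sites in another way, with a weight matrix over a longer stretch. The core letters of the hypoxia response element, ACGTG, which an E-box also contains, were in 3 of 5 on either strand, and in 19.6% of all windows. The matches stand in capitals, 5′ to 3′ on the strand of the gene, where CACGT is the same core on the other strand. They lie on the + strand at chr10:59323268-59323296, chr11:54100834-54100862, chr11:54100922-54100950 and chr5:136986953-136986981, in the order shown.
P4ha1: tgtgacagagcgCACGTagcgagggctgc
P4ha2, first match: tgtgcatcgcatACGTGcagcgcgtggcg
P4ha2, second match: cgggaggtggggACGTGgcggaggctcaa
Plod3: cttgaagtcattACGTGatgttcccttgg
The 2 matches of P4ha2 begin 78 bases before and 10 bases after the annotated start, that of P4ha1 16 bases and that of Plod3 54 bases before it. A match is a description of letters and not a binding site. The 3 genes that held one differed by 0.07 (P4ha1), -0.37 (P4ha2) and 0.34 (Plod3) with their highest probe set.

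P4ha2 had the largest difference of the 9 genes by their highest probe sets, and was lower in Myc-depleted cells on average. Second probe sets of P4ha1 and Loxl4 differed by more, and that of Loxl1 by barely more (0.36696, against -0.36665 for P4ha2). P4ha2 had 10.98 and 10.48 in Myc-depleted cells, against 10.94 and 11.25 in control cells. Myc-depleted 1 lay 0.04 over control 1, so the groups overlapped, and Myc-depleted 2 was the lowest array. The difference was -0.37 (SE 0.23, adjusted p = 0.682 in limma), with an interval of 0.495-fold to 1.21-fold. It was the only 1 of the 16 probe sets called with the spike-in 3′ minus 5′ difference as a covariate (-0.42, SE 0.10, adjusted p = 0.0440), a fit with 1 residual degree of freedom that also called 3224 of all 27022 probe sets, or 11.9%. At an unadjusted p under 0.05 it gave 4 of 16, against 30.0% of all probe sets. Without Myc-depleted replicate 1 the difference was -0.62 with an unadjusted p of 0.0417 (adjusted p = 0.444 in limma), and without Myc-depleted replicate 2 it was -0.12. Between the arrays with like spike-in values, P4ha2 differed by -0.27 (Myc-depleted 1 minus control 2) and -0.46 (Myc-depleted 2 minus control 1). The genes whose values over the 4 arrays, centred on their mean, lay nearest to those of P4ha2 among 12589 genes were Ttc7, Mast4 and Ercc6 (Euclidean distances of 0.042, 0.046 and 0.047 on the log2 scale).

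P4ha1 had 11.67 and 11.48 in Myc-depleted cells and 11.31 and 11.70 in control cells by probe set 1452094_at. The groups overlapped, with a difference of 0.07 (SE 0.19, adjusted p = 0.948 in limma) and an interval of 0.732-fold to 1.505-fold. By its second probe set, 1426519_at, it had 7.03 and 9.86 in Myc-depleted cells and 9.76 and 8.45 in control cells. The 4 arrays spanned 2.83 there, against 0.39 for the first probe set, and the difference of -0.66 had an SE of 1.11. Without Myc-depleted replicate 2 that difference was -2.07 with an unadjusted p of 0.0272 (adjusted p = 0.339), and without Myc-depleted replicate 1 it was 0.76, while it was -0.0011 without control replicate 1 and -1.31 without control replicate 2.

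The wide probe sets of P4ha1 and Loxl4 were low on the same arrays. Both P4ha1 1426519_at and Loxl4 1450134_at were lowest on Myc-depleted 1 and next lowest on control 2, the arrays with the large 3′ minus 5′ differences of the spike-ins. The same arrays had the larger 3′ minus 5′ differences of actin (1.95 and 0.69 on the Myc-depleted arrays, 0.60 and 1.36 on the control arrays) and of Gapdh (0.87 and -0.11 on the Myc-depleted arrays, -0.13 and 0.31 on the control arrays). The part of this in the values of the enzymes was not tested. With the spike-in covariate the difference of P4ha1 1426519_at was -0.37 (SE 0.17) and that of Loxl4 1450134_at was -0.26 (SE 0.11), and neither was called (adjusted p = 0.191 and 0.157 in limma).

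**Figure D3:**
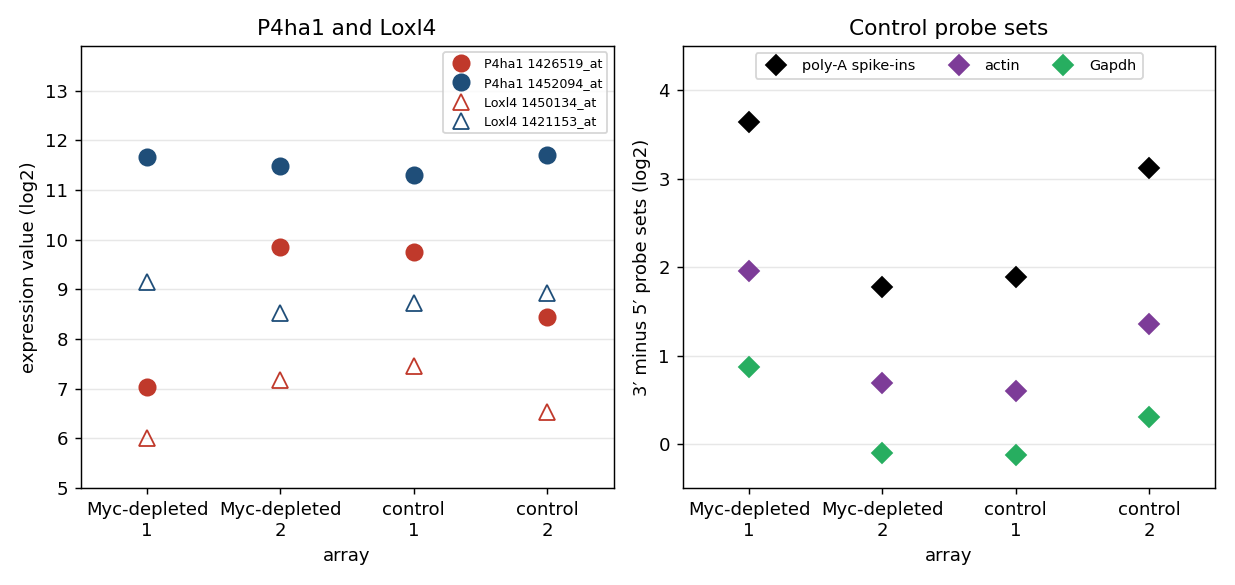
Left, log2 expression values of the 2 probe sets each of P4ha1 (circles) and Loxl4 (triangles) on the 4 arrays. Right, log2 value of the 3′ probe sets minus that of the 5′ probe sets for the poly-A spike-ins, actin and Gapdh on the same arrays. The red probe sets are lowest on Myc-depleted 1 and control 2, where the 3′ minus 5′ differences are largest (3.64 and 3.12 for the spike-ins).

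The other enzymes also differed between arrays of 1 group. Control 1 lay under control 2 for 12 of 16 probe sets, with a median of -0.25, and Myc-depleted 1 lay over Myc-depleted 2 for 10 of 16, with a median of 0.12. The sign of this gap was opposite in the 2 groups for 14 of 16 probe sets, or 87.5%, against 72.0% of all probe sets tested. The median size of the gap between the control arrays was 0.29 for the enzymes and 0.16 for all probe sets tested. The sign of the group comparison depended on which arrays were set against each other. The median over the 16 probe sets was 0.15 for Myc-depleted 1 minus control 1 and -0.16 for Myc-depleted 2 minus control 2, while the comparisons of arrays with like spike-in values gave -0.03 (Myc-depleted 1 minus control 2) and 0.09 (Myc-depleted 2 minus control 1). Of the 6 genes with several probe sets, 5 had probe sets of both signs, and only Lox did not. The share of all genes with probe sets of both signs was not counted.

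Other genes that make, fold and process procollagen also had a median near 0. Of 27 such genes, 24 had their own probe set and 22 were tested. Their median difference was -0.01, beside 0.02 over all genes tested, with 11 positive and 11 negative. An adjusted p under 0.05 was reached by 0 of 22 (0% of all genes tested), and an unadjusted p under 0.05 by 0 higher and 1 lower, where 6.96% of all genes tested were higher and 5.23% lower at that level. The 1 was Tll1, a tolloid-like protease of the family that trims procollagen and activates lysyl oxidase, with 5.83 and 6.89 in Myc-depleted cells, against 7.89 and 7.40 in control cells (difference -1.28, SE 0.43, adjusted p = 0.469 in limma). P4hb, the subunit shared by all prolyl 4-hydroxylases, had 13.46 and 13.35 in Myc-depleted cells and 13.41 and 13.57 in control cells. Serpinh1, the collagen chaperone Hsp47, had 12.19 and 12.39 in Myc-depleted cells and 12.45 and 12.58 in control cells, a difference of -0.22 (SE 0.14), and P4ha3, the third catalytic subunit, had 7.75 and 7.29 in Myc-depleted cells and 6.82 and 7.17 in control cells, a difference of 0.53 (SE 0.23). The groups did not overlap for Serpinh1 and P4ha3, and overlapped for P4hb. Over the 22 tested genes of the list they did not overlap for 3 higher and 7 lower, or 45.5%, against 47.5% of all genes tested.

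Among the substrates, 14 genes for fibrillar and basement membrane collagens and elastin, 12 were tested, with a median of -0.08 and 0 called. Col1a1, a chain of type I collagen, had 12.95 and 12.19 in Myc-depleted cells and 12.85 and 13.33 in control cells, a difference of -0.52 (SE 0.33). Col1a2, its partner, differed by -0.07 (SE 0.16) and Col3a1 by 0.02 (SE 0.32). An unadjusted p under 0.05 in limma was reached by 1 higher and 0 lower, or 8.33%, against 12.2% of all genes tested. The 1 was Col4a2, a chain of basement membrane collagen. It had 11.63 and 11.12 in Myc-depleted cells, against 10.78 and 10.68 in control cells (difference 0.64, SE 0.21, adjusted p = 0.472 in limma).

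Of 18 fibre assembly genes, 13 were tested, with a median of -0.01, 0 called, 2 higher and 0 lower at an unadjusted p under 0.05, or 15.4%, against 12.2% of all genes tested. Fmod encodes fibromodulin, a small proteoglycan that binds collagen and guides Lox to its sites. It had 13.18 and 13.00 in Myc-depleted cells, against 11.12 and 12.03 in control cells. Both Myc-depleted arrays lay over both control arrays, by 1.51 (SE 0.34) or 2.85-fold, with an adjusted p of 0.384 in limma, and its 6 probe sets differed by 0.92 to 1.85. The proteoglycan gene Dcn, dimmer at 6.02 and 6.08 in Myc-depleted cells and 5.40 and 5.36 in control cells, differed by 0.67 (SE 0.11, adjusted p = 0.332 in limma).

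Genes that supply the enzymes with copper, iron and ascorbate were 10, of which 9 were tested, with a median of -0.04, 0 called, 1 higher and 2 lower at an unadjusted p under 0.05, where 6.96% of all genes tested were higher and 5.23% lower. The copper genes Atp7a, the pump that loads lysyl oxidase in the Golgi, and Atox1, its chaperone, differed by -0.04 (SE 0.15) and -0.03 (SE 0.13). The ascorbate transporter gene Slc23a2 differed by 0.12 (SE 0.13). The 3 with a small p concern iron and glucose. Slc40a1, the iron exporter ferroportin, had 6.33 and 6.09 in Myc-depleted cells and 5.32 and 5.10 in control cells (interval of the difference 0.57 to 1.43, adjusted p = 0.317 in limma). Tfrc, the transferrin receptor, had 9.32 and 8.65 in Myc-depleted cells and 10.08 and 10.01 in control cells (difference -1.07, adjusted p = 0.389 in limma). Slc2a1, a glucose transporter that also carries dehydroascorbate, had 11.60 and 11.71 in Myc-depleted cells and 12.03 and 12.12 in control cells (difference -0.42, adjusted p = 0.431 in limma).

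The hypoxia response list, which holds factors, oxygen sensors and targets but none of the 10 enzymes, had 16 of 19 tested genes negative, with a median of -0.17. Of all 12589 genes tested, 5786 were negative, with a median of 0.02. Called were 0 of 19. At an unadjusted p under 0.05, 1 was higher and 3 were lower, or 21.1%, against 12.2% of all genes tested. The groups did not overlap for 3 higher and 10 lower genes, or 68.4%, where 47.5% of all genes tested did not overlap (26.6% higher and 20.8% lower). Adm, the vasoactive peptide adrenomedullin, had 11.32 and 11.51 in Myc-depleted cells and 10.83 and 10.89 in control cells. Egln3, an oxygen-sensing prolyl hydroxylase that acts on the hypoxia-inducible factors and not on collagen, had 7.11 and 7.16 in Myc-depleted cells and 7.61 and 7.55 in control cells, a difference of -0.44 (SE 0.11, adjusted p = 0.396 in limma). Ankrd37 differed by -0.82 (SE 0.27) and the lactate dehydrogenase gene Ldha by -0.30 (SE 0.11).

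**Figure D4:**
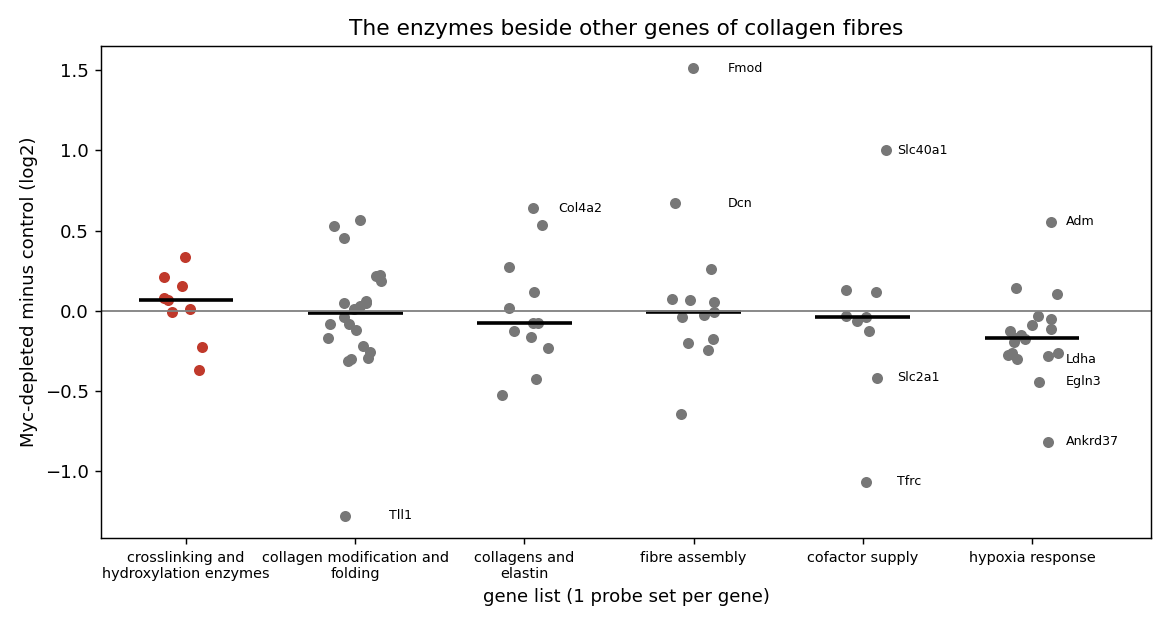
Difference between Myc-depleted and control cells on the log2 scale (y axis) for the 9 enzymes (red, highest probe set of each) and for the tested genes of the 5 related lists (grey), with the median of each as a black line and names for genes with an unadjusted p under 0.05. The enzymes lie between -0.37 and 0.34, and Fmod at 1.51 and Tll1 at -1.28 lie farthest from 0.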

How the data were processed

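The deposited values are log2 expression values per probe set. The authors imported the scanner files into Partek Genomics Suite 6.4, and their methods name the Robust Multichip Average. The submitters' processing notes name Partek 6.4 and GCRMA, and which of them made the values was not settled here. Values ran from 2.89 to 14.6, and the array medians from 5.48 to 5.49. The 64 control probe sets were left out, as were probe sets with a mean under the 40th percentile (log2 5.08), since the study removed background values by a rule that the sources do not state. The other 27022 of 45037 were tested. Gene names came from the platform annotation, in which 34945 probe sets had 1 symbol, 932 several and 9160 none. Differences, Myc-depleted minus control, were fitted by lmFit and eBayes of limma 3.58.1 (R 4.3.3), with Benjamini-Hochberg adjustment over all probe sets tested and 4.02 degrees of freedom for the intervals. The limma fit between the groups was tested on simulated data. The number of arrays limits the precision. Each gene was represented by its tested probe set with the highest mean, and other probe sets of the enzymes are given too.

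Named were Myc, every probe set of the enzymes, and of each of the 5 gene lists up to 4 genes with the smallest p under 0.05, with others needed to describe it. The enzymes, the lists and the spike-in covariate were chosen with earlier results of these data known. Alternatives covered the filter, scaling, a floor, the variance model, the ANOVA of the methods, the replicate number as a block, the spike-in covariate, each array left out and the probe set per gene.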

Additional observations from a re-analysis of the deposited data

How the results depend on the processing

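With 2 arrays a group, precision is limited by their number. Dim probe sets may understate a difference, which was not tested. The groups share the replicate numbers 1 and 2, but the deviations of same-numbered arrays correlated at -0.77 over the 27022 probe sets, so the numbers were not taken as pairs. With the replicate block 0 of all probe sets and 0 of the 16 enzyme probe sets were called, and 1009 had an unadjusted p under 0.05 against 2726 without it. With crossed numbers as the block, chosen after seeing the data, 21 probe sets were called. The spike-in covariate called 3224 of all probe sets and 1 of 16 (P4ha2), with 8104 and 4 at an unadjusted p under 0.05, and gave Loxl4 1421153_at as -0.051. It also called Myc (-1.04, adjusted p = 0.0162 in limma), whose unadjusted p in the ANOVA of the methods was 0.0544 (adjusted p = 0.543). The ANOVA of the methods gave 207 probe sets with a fold above 2 and an unadjusted p under 0.05, against 316 in limma. An unadjusted p under 0.05 was reached there by 2 enzyme probe sets (0 in limma) and by 2521 of all 27022 probe sets, or 9.33%.

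Each array left out in turn gave 0 calls over all probe sets and among the enzymes. Unadjusted p under 0.05 then ranged from 705 to 3765 over all probe sets (705 without control replicate 1, 936 without control replicate 2) and from 0 to 1 among the enzymes, and with a fold above 2 from 290 to 830 (830 without Myc-depleted replicate 2, 566 without Myc-depleted replicate 1) and from 0 to 1. Differences that turned sign were small or wide: the ranges over arrays left out were -0.056 to 0.21 for Lox 1416121_at, -0.10 to 0.17 for Lox 1448228_at, -0.12 to 0.11 for Loxl1 1451978_at, -0.31 to 0.32 for Loxl4 1421153_at, -0.98 to 0.18 for Loxl4 1450134_at, -0.086 to 0.39 for Plod2 1416686_at, -0.12 to 0.26 for P4ha1 1452094_at and -2.07 to 0.76 for P4ha1 1426519_at. Those that kept their sign ranged from 0.081 to 0.33 for Lox 1437903_at, 0.049 to 0.68 for Loxl1 1436063_at, 0.032 to 0.39 for Plod1 1416289_at, -0.18 to -0.073 for Plod1 1445893_at, 0.13 to 0.54 for Plod3, -0.62 to -0.12 for P4ha2, -0.26 to -0.19 for Loxl3 and -0.14 to -0.11 for Plod2 1416687_at. With the mean of all probe sets per gene, Loxl1 was 0.18, Loxl4 -0.19 and P4ha1 -0.29, since their second probe sets differ from the first. The cause of the other turns was not tested. No filter, the stricter filter (which left out Plod1 1445893_at), quantile normalization, median centring, the floor, a mean-variance trend and a robust prior turned no sign of the 16 and changed no call.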
